A study of Mus musculus with 18 samples.

Results

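A group of 8 genes that handle ammonium, protons and bicarbonate was followed in kidney, heart and liver of mice fed a ketogenic diet or chow. They were chosen by function, with earlier results of these data known, and found by gene symbol among the 22609 genes counted in every library. Glud1 and Slc38a3 belong to ammonia formation from glutamine, Slc9a3 and Slc4a4 to proton and bicarbonate transport, Car2, Car4 and Car14 to the carbonic anhydrases, and Slc26a4 to bicarbonate secretion. The animals were wild-type C57BL/6J, an inbred strain. The ketogenic groups ate a diet of 90% fat, 9.7% protein and 0.3% carbohydrate from the age of 4 weeks for 21 days, and the other groups ate standard chow over the same time. Each of the 6 groups (ketogenic kidney and chow kidney, ketogenic heart and chow heart, ketogenic liver and chow liver) had 3 libraries of messenger RNA from whole organs, labelled as biological replicates. The series title concerns senescence that depends on p53; blood pH, ketone bodies and urinary ammonium were not analysed here.

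Ketone bodies are organic acids, and the kidney disposes of an acid load by making ammonium and by returning bicarbonate to the blood. In the proximal tubule, glutamine taken up from the blood is split to glutamate and then to 2-oxoglutarate, which releases ammonium for the urine and leaves bicarbonate for the circulation. Filtered bicarbonate is recovered when a secreted proton turns it into carbon dioxide and water, a reaction that carbonic anhydrases speed up on both sides of the apical membrane. In the collecting duct, type A intercalated cells secrete acid and type B intercalated cells secrete bicarbonate.

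Library totals ran from 16173996 to 19923905 estimated counts in kidney, from 16135276 to 22767878 in heart and from 18151967 to 23835383 in liver. Ketogenic replicates 1 and 2 of heart, and likewise of liver, differed by little more than counting noise (median chi-square per gene 0.669 and 0.708, where counting alone gives 0.455 and other pairs of a group gave 1.28 to 4.77). Each such pair was averaged and counted as 1 sample, so ketogenic heart and liver means have n = 2. The tests used all 6 libraries of an organ. If such a pair is 1 mouse, the adjusted p-values of heart and liver are too small and their intervals too narrow. Ketogenic kidney replicate 1 stood apart from the other ketogenic kidneys. Chow heart replicate 3 stood apart in atrial muscle markers, with a summed level of the atrial markers Myl7, Myl4, Sln and Nppa of 12090 CPM (counts scaled to library size), against at most 132 CPM in the other hearts. The same library had the highest summed adipocyte markers, 650.2 CPM, against 376.2 to 439.2 CPM in the other hearts, and in it Adipoq stood at 24.05 CPM and Cfd at 67.43 CPM, both under 1 CPM in the other 5 hearts. Kidney libraries had summed levels of 9 proximal tubule markers of 17420, 22070 and 23010 CPM on the ketogenic diet and 16180, 18200 and 14920 CPM on chow. Most of that sum was Lrp2 and Slc34a1. Of the 9 markers, only Slc5a2 passed the test between the diets. It was lower on the ketogenic diet, at 450.9, 438 and 517.9 CPM against 609.9, 738.4 and 602 CPM on chow. In whole organs, fewer cells of a type and less RNA per cell cannot be told apart.

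Slc9a3, Slc4a4 and Car14 passed the test between the diets in at least 1 organ, and the 250 bases before their RefSeq starts are shown for that reason (GRCm38.p6, 5′ to 3′ on the gene's strand). RefSeq's promoter table matched 6 of the 8 genes; Car2, which also passed in 1 organ, and Slc38a3 had no entry. Capitals mark matches on either strand to 7 motifs: the CCAAT box, the TATA box with the letters TATAAA, the GC box with the letters GGGCGG, the E-box with the letters CACGTG, a nuclear receptor half-site with the letters AGGTCA, a cyclic AMP element with the letters TGACGTCA, and a D-box with the letters TTANGTAA. The Slc9a3 window is chr13:74121163-74121412 on the plus strand, the Slc4a4 windows are chr5:88887010-88887259 and chr5:89027716-89027965 on the plus strand, and the Car14 window is chr3:95904686-95904935 on the minus strand.
Slc9a3: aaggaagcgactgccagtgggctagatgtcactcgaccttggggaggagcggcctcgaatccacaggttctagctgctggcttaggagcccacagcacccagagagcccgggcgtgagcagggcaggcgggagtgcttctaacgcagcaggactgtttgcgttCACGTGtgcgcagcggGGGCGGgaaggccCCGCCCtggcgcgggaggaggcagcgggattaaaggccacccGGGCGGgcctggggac
Slc4a4 upstream start: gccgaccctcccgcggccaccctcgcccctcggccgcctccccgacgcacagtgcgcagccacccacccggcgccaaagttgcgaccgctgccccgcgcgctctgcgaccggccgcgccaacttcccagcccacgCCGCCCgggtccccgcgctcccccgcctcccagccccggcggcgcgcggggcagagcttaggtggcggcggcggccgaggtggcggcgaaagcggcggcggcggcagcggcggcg
Slc4a4 internal start: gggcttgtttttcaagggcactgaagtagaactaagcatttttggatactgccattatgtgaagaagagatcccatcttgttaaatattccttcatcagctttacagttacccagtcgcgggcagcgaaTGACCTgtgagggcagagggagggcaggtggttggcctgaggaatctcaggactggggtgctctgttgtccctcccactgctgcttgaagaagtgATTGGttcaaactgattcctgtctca
Car14: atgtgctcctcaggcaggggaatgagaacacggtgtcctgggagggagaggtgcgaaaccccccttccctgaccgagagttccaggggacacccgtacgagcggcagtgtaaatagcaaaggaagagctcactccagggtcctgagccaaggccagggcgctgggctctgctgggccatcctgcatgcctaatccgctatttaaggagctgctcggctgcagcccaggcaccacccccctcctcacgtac

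The Slc9a3 window held an E-box at -87 to -82 from the start, a motif in 6.02% of the 32851 promoters of this length, and 3 GC boxes, a motif in 32.7% of them. The first bases at this Slc9a3 start were not found in a transcript of the gene, unlike those of the Slc4a4 and Car14 starts. Its positions therefore rest on the listed start alone. The upstream Slc4a4 window was 82% G or C, against a median of 52.4% over all promoters, and held 1 GC box. The internal Slc4a4 window was 48.8% G or C and held an AGGTCA half-site at -121 to -116, a motif in 14% of promoters, and a CCAAT box, a motif in 33.8%. Counts were made per gene, so transcripts from the 2 Slc4a4 starts were not separated. The Car14 window, at 62% G or C, held none of the letters searched. These matches describe the sequences and say nothing of which factors bind there.

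Levels between genes and organs are given as CPM per kilobase of exon on a scale common to all 18 libraries, and organ differences were tested on chow with edgeR's quasi-likelihood test, in which 73.8% of all genes differed between kidney and heart, 76.4% between kidney and liver and 78.2% between heart and liver at an adjusted p under 0.05. All tested members differed in each pair of organs except Car14 between kidney and liver.

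The ammonia genes were highest in liver. Glud1 (chr14:35123913-35158219, plus strand, mm9), mitochondrial glutamate dehydrogenase, stood at 148 ± 27.4 and 127 ± 3.04 CPM per kilobase in ketogenic and chow kidney, at 50.4 ± 0.0176 and 51.8 ± 4.03 in ketogenic and chow heart, and at 613 ± 48.4 and 644 ± 73.7 in ketogenic and chow liver (SD, n = 3 for kidney and chow, n = 2 for ketogenic heart and liver). Slc38a3 (chr9:107553486-107571299, minus strand), the sodium-coupled glutamine transporter SNAT3, was lowest in kidney, at 16.5 ± 3.66 and 12.1 ± 0.471 CPM per kilobase in ketogenic and chow kidney. Its level was 32.7 ± 0.244 and 26.6 ± 6.10 in ketogenic and chow heart and 775 ± 71.0 and 733 ± 38.4 in ketogenic and chow liver. On chow the kidney level of Slc38a3 was 0.0165 times the liver level (log2 difference -5.92, SE 0.20).

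The transporters of the tubule were highest in kidney. Slc4a4 (chr5:89316285-89668681, plus strand), the electrogenic sodium bicarbonate cotransporter NBCe1 through which proximal tubule cells pass bicarbonate to the blood, stood at 199 ± 33.9 and 169 ± 21.2 CPM per kilobase in ketogenic and chow kidney, against 11.2 ± 0.476 and 7.66 ± 0.545 in ketogenic and chow heart and 32.2 ± 1.31 and 26.9 ± 1.11 in ketogenic and chow liver. Slc9a3 (chr13:74258963-74303512, plus strand), the apical sodium-proton exchanger NHE3, stood at 43.2 ± 1.66 and 33.3 ± 3.82 CPM per kilobase in ketogenic and chow kidney, was at 0.231 and 0.346 in ketogenic and chow heart, and was listed at 0 in all 6 livers. On chow, kidney Slc9a3 was at least 453.1-fold higher than liver Slc9a3, taking 3 counts per library as the most that a count of 0 allows. Slc26a4 (chr12:32204684-32244834, minus strand), the chloride-bicarbonate exchanger pendrin of bicarbonate-secreting intercalated cells, stood at 19.1 ± 1.69 and 20.5 ± 2.72 CPM per kilobase in ketogenic and chow kidney, and on chow was 61.9-fold higher in kidney than in liver. Heart libraries held 1 to 3 counts of Slc26a4 each, so it was not tested there.

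The 3 carbonic anhydrases had different distributions. Car2 (chr3:14886426-14900770, plus strand), the cytosolic enzyme, stood at 120 ± 5.51 and 129 ± 11.1 CPM per kilobase in ketogenic and chow kidney, against 3.25 ± 0.239 and 5.10 ± 1.69 in ketogenic and chow heart and 4.49 ± 0.406 and 11.7 ± 1.17 in ketogenic and chow liver. Car4 (chr11:84771256-84779556, plus strand), anchored to the outer face of the membrane by a lipid, stood at 85.8 ± 13.9 and 71.6 ± 8.09 in ketogenic and chow kidney and at 18.04 ± 2.14 and 14.9 ± 4.08 in ketogenic and chow heart. Liver held 1 count of Car4 in 6 libraries, and the kidney level on chow was at least 507.9-fold higher on the same floor of 3 counts per library. Car14 (chr3:95701723-95708562, minus strand), a membrane-spanning enzyme with its active site outside the cell, was the most evenly spread, at 63.3 ± 3.15, 78.3 ± 9.50 and 60.1 ± 1.00 CPM per kilobase in chow kidney, heart and liver. Its kidney and liver levels on chow did not differ beyond their spread (log2 difference 0.08, 95% interval -0.13 to 0.28, adjusted p = 0.480). These Car14 comparisons depended on the scaling: with total-count scaling kidney was above liver on chow (1.03) and was not below heart (0.079). Car14 shares 413 exon bases with Aph1a on the opposite strand, which strand-specific counting keeps apart.

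**Figure D1:**
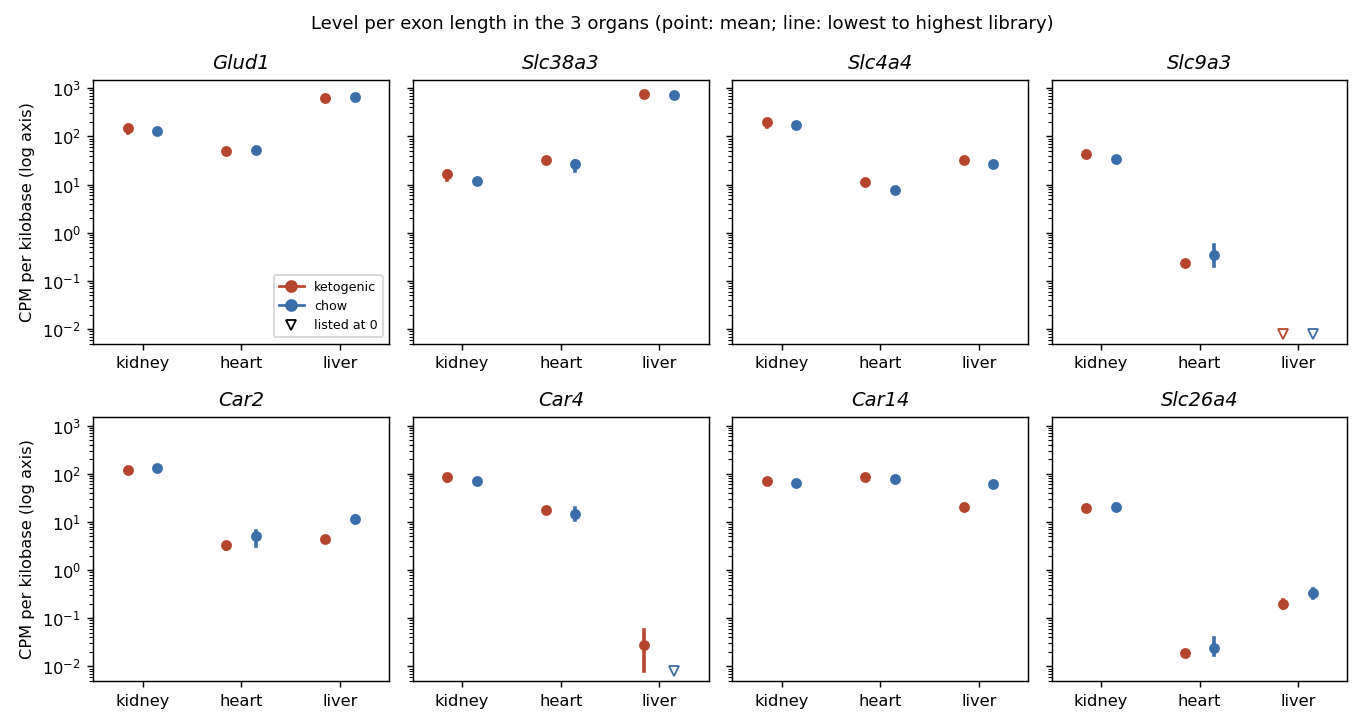
Level of each gene as CPM per kilobase of exon (log axis) in kidney, heart and liver, ketogenic left of chow, with points at group means and lines from the lowest to the highest library; open triangles mark groups listed at 0. Glud1 and Slc38a3 are highest in liver, Slc4a4, Slc9a3, Car2, Car4 and Slc26a4 in kidney, and the ketogenic liver stands below the chow liver for Car2 and Car14.

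In kidney, 1 of the 8 genes, Slc9a3, passed the test between the diets, and 7 did not; 9.05% of the 14526 genes tested in kidney passed (1314 genes), 3.59% higher and 5.45% lower on the ketogenic diet. All values below are CPM within the organ, fold changes are ketogenic minus chow on the log2 scale, and adjusted p-values are from edgeR's quasi-likelihood test with Benjamini-Hochberg adjustment over all genes of the organ. The members' median log2 fold change was 0.21, against 0.00 over all kidney genes. A share of 1 in 8 is close to that background.

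Slc9a3 stood at 139, 143 and 149 CPM in the 3 ketogenic kidneys and at 98.2, 117 and 122 CPM in the 3 chow kidneys. All ketogenic kidneys were above all chow kidneys, as for 31.4% of kidney genes whose groups did not overlap in either direction. The means were 144 ± 5.14 and 112 ± 12.6 CPM (SD, n = 3 each), a log2 fold change of 0.36 (SE 0.09, 95% interval 0.15 to 0.57) or 1.28-fold, with an adjusted p of 0.0455. This call was narrow: it was lost without any 1 library other than ketogenic replicate 1 (adjusted p 0.076 to 0.159, log2 fold change 0.26 to 0.42), with total-count scaling (0.0947), with the replicate number as a block (0.0565) and with all 18 libraries in 1 model (0.0858).

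The ammonia genes did not pass. Glud1, which frees ammonium from glutamate, stood at 495, 711 and 674 CPM in ketogenic kidneys and at 552, 543 and 531 CPM in chow kidneys. Ketogenic replicates 2 and 3 were above every chow kidney and replicate 1 was below every chow kidney, so the groups overlapped (log2 fold change 0.21, 95% interval -0.10 to 0.52, adjusted p = 0.367). Slc38a3, through which tubule cells take up glutamine, stood at 45.0, 66.8 and 68.9 CPM in ketogenic kidneys and 43.4, 44.1 and 46.9 CPM in chow kidneys. Replicates 2 and 3 were again above every chow kidney, and replicate 1 was within the chow range. Its log2 fold change was 0.43 (95% interval 0.07 to 0.78, unadjusted p = 0.0237), with an adjusted p of 0.123.

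Among the other genes of bicarbonate recovery, Slc4a4 stood at 1604, 2149.9 and 2217 CPM in ketogenic kidneys and 1592, 1936 and 1608 CPM in chow kidneys. The 2 higher ketogenic kidneys were above every chow kidney and the third was within the chow range (log2 fold change 0.22, 95% interval -0.13 to 0.56, adjusted p = 0.400). Car4, which acts on the lumen side, stood at 122, 164 and 162 CPM in ketogenic kidneys and 135, 133 and 110.3 CPM in chow kidneys, again with replicate 1 inside the chow range (0.24, -0.05 to 0.54, adjusted p = 0.268). Car14 stood at 141, 172 and 156 CPM in ketogenic kidneys and 132, 143 and 142 CPM in chow kidneys, and these groups overlapped through ketogenic replicate 1 (0.17, -0.04 to 0.37, adjusted p = 0.268). Car2, which is found in proximal tubule cells and in intercalated cells, stood at 275, 301 and 282 CPM in ketogenic kidneys and 299, 339 and 298 CPM in chow kidneys. These groups overlapped too, with a log2 fold change of -0.13 (95% interval -0.33 to 0.08, adjusted p = 0.413).

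Slc26a4, the member on the base-secreting side, stood at 86.3, 72.5 and 77.4 CPM in ketogenic kidneys and 78.0, 97.4 and 81.4 CPM in chow kidneys. The groups overlapped, and the 95% interval of the log2 fold change of -0.12 ran from -0.36 to 0.11 (adjusted p = 0.498). With 3 kidneys a group, changes of Slc26a4 within that interval remain possible. The summed level of 4 type B intercalated cell markers (Slc4a9, Hmx2, Insrr and Slc4a8) was 142, 142 and 145 CPM in ketogenic kidneys and 136, 156 and 149 CPM in chow kidneys.

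**Figure D2:**
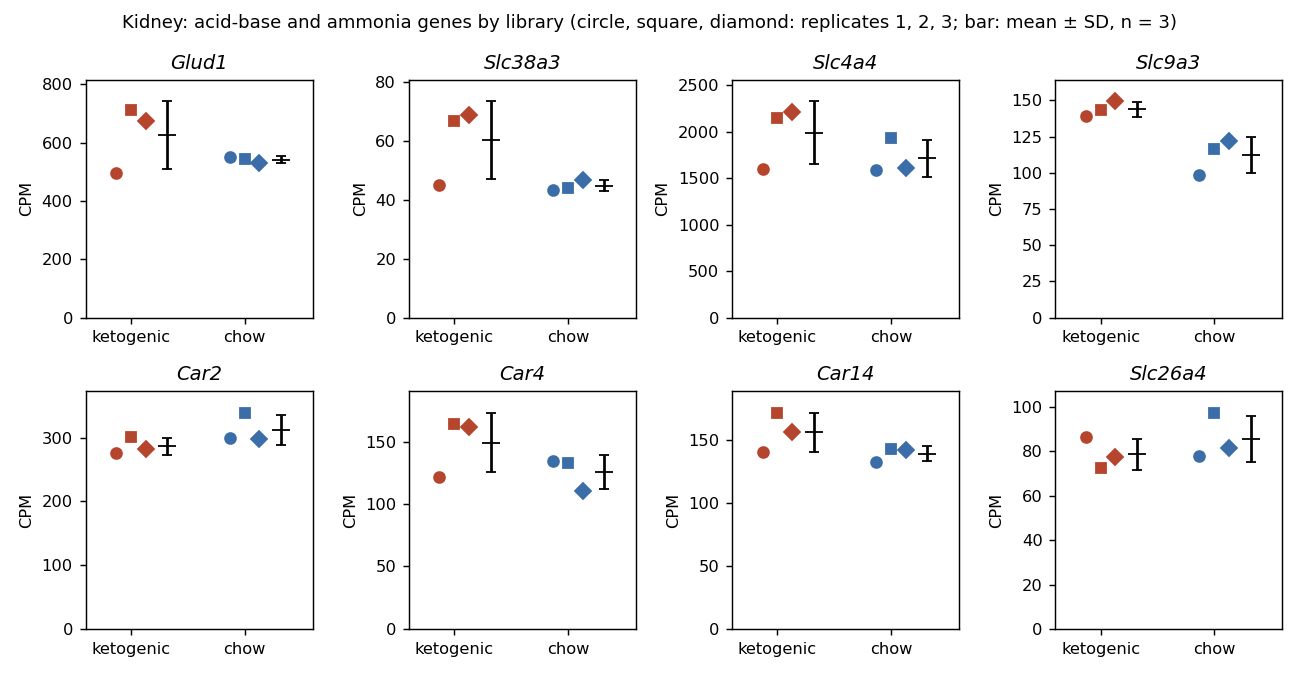
CPM of the 8 genes in each kidney library, ketogenic left of chow, on axes that start at 0, with the mean ± SD (n = 3) beside the points. For Slc9a3 the 3 ketogenic points (139 to 149 CPM) lie above the 3 chow points (98.2 to 122 CPM), while for Glud1, Slc38a3, Slc4a4 and Car4 ketogenic replicate 1 lies within or below the chow range and replicates 2 and 3 above it.

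The outcome in kidney turned on ketogenic replicate 1. Without that library, 5 of the 8 genes passed and all 5 were higher on the ketogenic diet: Slc38a3 (log2 fold change 0.60, adjusted p = 0.000241), Car4 (0.37, 0.0123), Glud1 (0.35, 0.0117), Slc4a4 (0.35, 0.0380) and Slc9a3 (0.38, 0.0120). The same fit called 3402 of the 14717 genes it tested, against 1314 of 14526 with all 6 libraries. It cannot test the diet effect on Glud1, Slc38a3, Slc4a4 and Car4. For these genes the library left out was the only ketogenic kidney within or below the chow range. Leaving out any 1 of the other libraries gave no call among the 8 genes. Ketogenic replicate 1 also differed in nephron markers: the summed level of 4 thick ascending limb markers was 5822, 3912 and 3421 CPM in ketogenic kidneys 1, 2 and 3, against 6029, 5246 and 6430 CPM in chow kidneys. The proximal tubule sum of replicate 1 was the lowest of the ketogenic group, as were its levels of Lrp2 and Slc34a1. Its levels of the proximal tubule markers Aqp1 and Slc5a12 were the highest of that group. The part of tissue sampling in these results was not tested. No label marks this library as different, so the values with all 6 libraries are the ones reported.

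**Figure D3:**
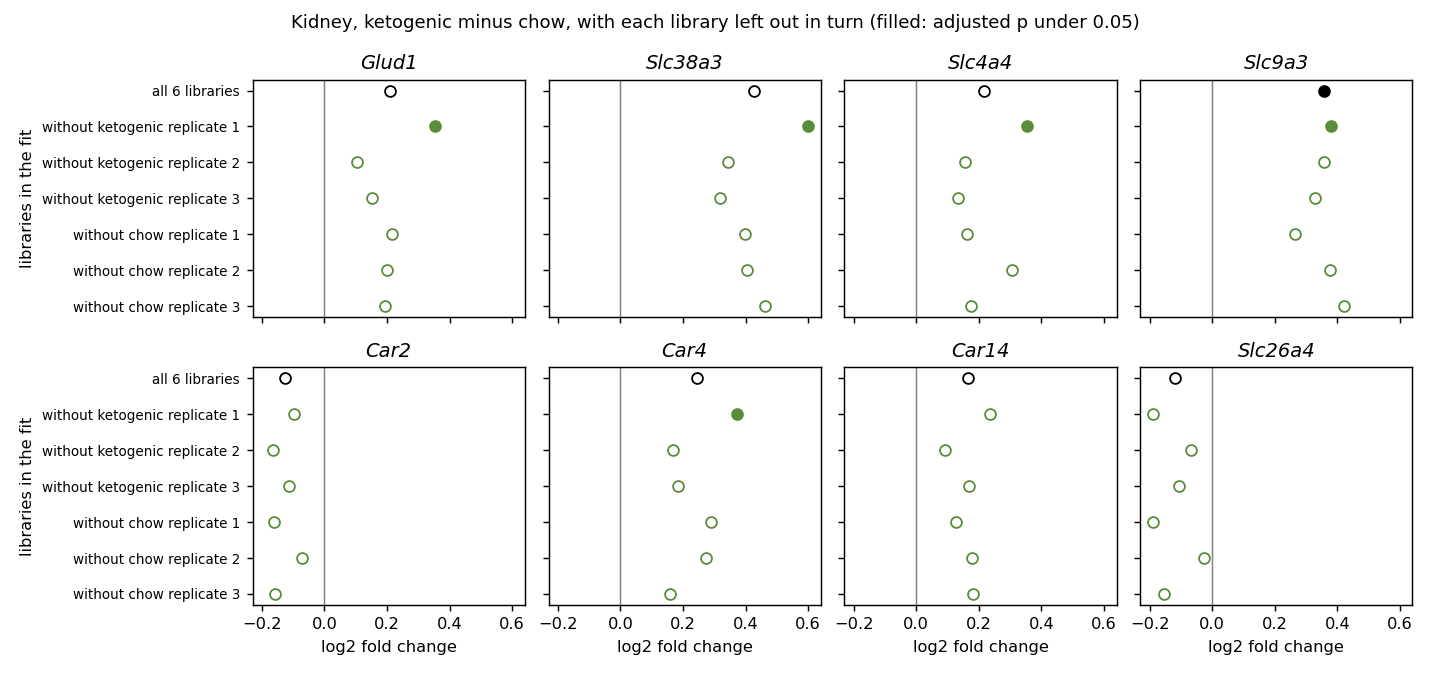
Log2 fold change (ketogenic minus chow) of the 8 genes in kidney with all 6 libraries and with each library left out in turn; filled points passed at an adjusted p under 0.05. Without ketogenic replicate 1, which had the lowest ketogenic level of each, Glud1, Slc38a3, Slc4a4, Slc9a3 and Car4 passed. Without any other single library none did.

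Pck1, cytosolic phosphoenolpyruvate carboxykinase, which carries the carbon of glutamine on towards glucose in the proximal tubule, divided the ketogenic kidneys in the same way. It stood at 990.4, 3960 and 4038 CPM in ketogenic kidneys and 999, 890.1 and 851 CPM in chow kidneys (log2 fold change 1.71, SE 0.54, adjusted p = 0.117). Replicates 2 and 3 were far above every chow kidney and replicate 1 was at the chow level. Without replicate 1 the log2 fold change was 2.13. That fit cannot test the diet effect on Pck1, because the library left out is the one with the chow-like level.

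Of 117 other genes of ammonia, proton and bicarbonate handling that were tested in kidney, 8 rose, 7 fell and 102 did not pass, where 3.59% of all kidney genes were higher and 5.45% lower. In the list of ammoniagenesis and glutamine use, Glud1 included, 3 of 16 tested genes rose and none fell, with a median log2 fold change of 0.18. The 3 were the alanine aminotransferases Gpt2 (0.60, adjusted p = 0.0191) and Gpt (0.69, 0.0217), which move nitrogen between alanine and glutamate, and the mitochondrial dicarboxylate carrier Slc25a10 (0.66, 0.0344). Gpt2 stood at 72.0, 98.5 and 86.2 CPM in ketogenic kidneys and 52.1, 62.0 and 55.5 CPM in chow kidneys, with no overlap. Glutamine synthetase Glul, which runs the other way and takes up ammonium, did not pass (0.03, adjusted p = 0.912). The calls were sensitive to single libraries: Gpt2 was lost when any 1 of ketogenic kidneys 2 and 3 and chow kidneys 1 and 3 was left out, Gpt without ketogenic replicate 3 or any 1 chow kidney, and Slc25a10 without any 1 kidney other than ketogenic replicate 1. The rises were not all confined to kidney. Gpt2 also rose in heart (0.42, adjusted p = 0.0154) and liver (0.70, 8.09e-05). Slc25a10 rose in liver (0.51, 0.000479) and did not pass in heart, and Gpt passed in neither.

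Among 16 tested transporters of glutamine and glutamate, Slc38a3 included, 1 rose and 2 fell. Slc7a8, a basolateral exchanger of neutral amino acids, stood at 229, 259 and 296 CPM in ketogenic kidneys and 408, 486 and 386 CPM in chow kidneys (-0.71, adjusted p = 0.0113). Slc38a1 fell (-0.76, 0.0195), and the glutamate transporter Slc1a2 rose (0.96, 0.0115). Slc7a8 did not pass without ketogenic replicate 2 (0.0507), Slc1a2 without chow replicate 1 (0.069), or Slc38a1 without any 1 kidney other than ketogenic replicate 1. Slc7a8 also fell in heart (-0.69, adjusted p = 0.0198) and liver (-0.72, 0.000683). Slc38a1 fell in heart (-1.07, 0.00945) and did not pass in liver, and Slc1a2 rose in liver and did not pass in heart. The apical neutral amino acid transporter Slc6a19 stood at 549, 478 and 525 CPM in ketogenic kidneys and 302, 432 and 394 CPM in chow kidneys, without overlap but with an adjusted p of 0.0695.

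In the list of ammonia transport, 1 of 7 tested genes rose and 1 fell. Slc12a2, a sodium-potassium-chloride cotransporter that can carry ammonium, stood at 92.4, 93.5 and 107 CPM in ketogenic kidneys and 70.02, 67.3 and 68.0 CPM in chow kidneys (0.52, adjusted p = 0.00617). Rhbg, the basolateral ammonia channel of the collecting duct, stood at 39.8, 36.2 and 33.3 CPM in ketogenic kidneys and 53.2, 54.1 and 46.2 CPM in chow kidneys (-0.49, 0.0152). Slc12a2 passed without each of the 6 libraries in turn, while Rhbg was lost when any 1 of ketogenic kidneys 2 and 3 and chow kidneys 1 and 2 was left out. Its partner Rhcg did not pass (-0.16, 0.247). In liver Rhbg fell as well (-0.46, adjusted p = 0.00852), and Slc12a2 rose (0.49, 0.0474). The liver call of Rhbg was kept without each of the 6 libraries in turn, and that of Slc12a2 in 1 of these 6 fits. In heart Slc12a2 did not pass and Rhbg was not tested.

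Of 16 tested bicarbonate transporters, Slc4a4 and Slc26a4 included, 1 passed in kidney. Slc4a7, the electroneutral sodium bicarbonate cotransporter NBCn1, rose (0.35, adjusted p = 0.0310), a call lost without any 1 kidney other than ketogenic replicate 1. Slc4a1, the chloride-bicarbonate exchanger of type A intercalated cells and red cells, stood at 64.8, 50.7 and 49.4 CPM in ketogenic kidneys and 71.0, 65.0 and 81.5 CPM in chow kidneys, with an adjusted p of 0.0837. Slc4a9, the basolateral exchanger of type B cells, did not pass (0.05, 0.723). Slc9a3 was the only one of 13 tested sodium-proton exchangers and scaffolds that passed, while its scaffold Slc9a3r1 did not (0.18, 0.294).

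Of the 13 carbonic anhydrases tested in kidney, 1 passed. Car15, a lipid-anchored enzyme like Car4, stood at 90.4, 88.1 and 82.7 CPM in ketogenic kidneys and 115, 129 and 125 CPM in chow kidneys (-0.50, adjusted p = 0.00557), and it passed without each library in turn. Car3, abundant in fat and muscle, stood at 212, 62.0 and 233 CPM in ketogenic kidneys and 16.9, 48.5 and 44.6 CPM in chow kidneys (2.21, 0.138). Summed adipocyte markers, which include Car3, were 614, 122 and 647 CPM in the same ketogenic kidneys and 70.4, 207 and 203 CPM in the chow kidneys; their part in the Car3 values was not tested. Among 22 vacuolar proton pump genes, Atp6v0e2 fell (-0.39, 0.0153), and the intercalated cell subunit Atp6v1b1 did not pass (-0.14, 0.215).

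The 6 phosphate and citrate transporters included 1 that rose, Slc20a1 (0.49, adjusted p = 0.0354), and 1 that fell, Slc34a3 (-0.46, 0.0331). Slc34a1, the main phosphate transporter of the proximal tubule, whose phosphate buffers acid in urine, stood at 4839, 7183 and 8058 CPM in ketogenic kidneys and 4612, 5362 and 4232 CPM in chow kidneys (0.50, 0.146). In the list of acid and base sensing, Ptk2b, a kinase that activates NHE3 in acid in cultured tubule cells, rose (0.48, 0.0308) and the potassium channel Kcnj10 fell (-0.28, 0.0455); 14 of the 16 tested genes did not pass. Of the 15 kidney calls in these lists, 2, those of Slc12a2 and Car15, were kept without each of the 6 libraries in turn; Slc20a1, Slc34a3 and Kcnj10 were lost without any 1 kidney other than ketogenic replicate 1, Ptk2b when any 1 of ketogenic kidneys 2 and 3 and chow kidneys 1 and 3 was left out, and Atp6v0e2 without ketogenic replicate 2 or chow replicate 1 or 2.

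In heart, 1 of the 7 genes tested passed, Slc4a4, where 24.7% of 13411 heart genes passed, 12.5% higher and 12.2% lower. Slc4a4, which brings bicarbonate into heart muscle cells with sodium, stood at 82.2, 93.0 and 82.7 CPM in ketogenic hearts and 54.5, 58.5 and 63.2 CPM in chow hearts. Every ketogenic heart was above every chow heart, as for Slc38a3 and Car14, and groups did not overlap for 44.7% of all heart genes. For Slc4a4 the means were 85.2 ± 3.46 CPM (SD, n = 2) on the ketogenic diet and 58.7 ± 4.35 CPM (SD, n = 3) on chow. The log2 fold change was 0.55 (SE 0.08, 95% interval 0.37 to 0.73), or 1.46-fold, with an adjusted p of 0.00231. With ketogenic replicates 1 and 2 summed to 1 library it was 0.54 (adjusted p = 0.0145), and it passed without each of the 6 libraries in turn.

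The other heart members did not pass. Slc38a3 stood at 92.4, 89.6 and 90.3 CPM in ketogenic hearts and 84.7, 82.8 and 54.6 CPM in chow hearts, where the low chow value was the replicate high in atrial markers (0.30, adjusted p = 0.218). Car2 stood at 6.27, 4.95 and 6.25 CPM in ketogenic hearts and 5.90, 11.9 and 10.2 CPM in chow hearts (-0.68, 95% interval -1.26 to -0.11, adjusted p = 0.0819). Red cells are rich in Car2, and summed erythroid markers were 1101, 1109 and 2572 CPM in ketogenic hearts and 4539, 5482 and 6517 CPM in chow hearts, with 6 of 8 erythroid genes lower; the part of blood in the Car2 values was not tested. Summed macrophage markers were 259.2, 258.2 and 259 CPM in ketogenic hearts and 481.3, 437.3 and 431.9 CPM in chow hearts, with all 6 of the tested markers lower; their part in the heart results, Slc4a4 included, was not tested. Without chow heart replicate 1, Car2 (-0.92, adjusted p = 0.0104) and Car4 (0.53, 0.0399) passed too. Car2 also passed with total-count scaling and with all 18 libraries in 1 model.

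Glud1 stood at 162 CPM in each of the 3 ketogenic hearts and between 153 and 178 CPM in chow hearts (-0.05, 95% interval -0.21 to 0.12). Car14 stood at 144, 143 and 143 CPM in ketogenic hearts and 140.03, 138 and 112 CPM in chow hearts (0.14, adjusted p = 0.278). Car4, which in heart lies on capillary endothelium and the muscle cell surface, stood at 25.5, 26.2 and 21.9 CPM in ketogenic hearts and 25.4, 19.4 and 14.7 CPM in chow hearts (0.31, 0.267). Slc9a3 had 30 counts summed over the 3 ketogenic hearts and 51 over the 3 chow hearts, too few to say more than that its interval ran from -1.58 to 0.46.

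Of 90 other tested genes of these lists in heart, 11 rose and 11 fell, a share close to the 24.7% of all heart genes that passed. Glul rose to 436, 432 and 463 CPM in ketogenic hearts, against 321, 286 and 284 CPM in chow hearts (0.58, adjusted p = 0.00162). The mitochondrial glutamate carrier Slc25a22 stood at 82.7, 80.5 and 70.1 CPM in ketogenic hearts and 30.5, 37.6 and 35.8 CPM in chow hearts (1.17, 0.000196). Slc4a3, the chloride-bicarbonate exchanger of heart muscle, rose (0.37, 0.0120). Slc4a1 stood at 1.32, 2.06 and 3.97 CPM in ketogenic hearts and 8.41, 19.9 and 15.8 CPM in chow hearts (-2.60, 0.0140), the same direction as the erythroid sum, of which it is a member. Of the 22 heart calls in the lists, 8 were kept without each of the 6 libraries in turn, Glul and Slc25a22 among them; Slc4a3 was lost without ketogenic replicate 1 or 2 and Slc4a1 without ketogenic replicate 2 or chow replicate 3.

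In liver, 3 of the 6 genes tested passed, where 47.6% of 12947 liver genes passed, 24.3% higher and 23.3% lower, so that the share of members was close to that of all genes. The groups did not overlap for 4 of the 6, Slc26a4 being the fourth, and for 57.2% of all liver genes. Car14 and Car2 fell and Slc4a4 rose. Slc9a3 and Car4 had too few counts to test.

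Liver Car14 stood at 21.2, 24.2 and 26.9 CPM in ketogenic livers and 69.3, 70.7 and 71.7 CPM in chow livers. The highest ketogenic liver was far below the lowest chow liver, and the means were 24.8 ± 2.94 CPM (SD, n = 2) on the ketogenic diet and 70.5 ± 1.22 CPM (SD, n = 3) on chow. The log2 fold change was -1.55 (SE 0.09, 95% interval -1.76 to -1.35), or 0.341-fold, with an adjusted p of 6.23e-07. Among all liver genes that fell it ranked 335 by fold change.

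Liver Car2 stood at 5.33, 5.68 and 6.31 CPM in ketogenic livers and 13.9, 16.8 and 14.6 CPM in chow livers, again without overlap. The log2 fold change was -1.39 (SE 0.12, 95% interval -1.66 to -1.12), or 0.382-fold (adjusted p = 7.20e-06). Erythroid marker sums were 402, 398 and 504 CPM in ketogenic livers and 654, 464 and 411 CPM in chow livers, which overlapped. Most of each sum was Hba-a1 and Hba-a2. Of the 6 erythroid genes tested in liver, 1 passed, Slc4a1. It fell to 0.499, 0.368 and 0.809 CPM in ketogenic livers, against 4.58, 3.565 and 2.436 CPM in chow livers (-2.65, adjusted p = 8.57e-05). The part of blood in the liver Car2 values was not tested. Car14 and Car2 both passed under each of the 16 alternatives tried in liver, including a test against a 1.5-fold change and the near-identical ketogenic livers summed to 1 library (Car14 -1.51, Car2 -1.36).

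Slc4a4 stood at 170.3, 173 and 183 CPM in ketogenic livers and 139, 148 and 150.2 CPM in chow livers, with no overlap (0.27, SE 0.07, 1.20-fold, adjusted p = 0.0121). It did not pass with all 18 libraries in 1 model (0.125) or in a test against 1.5-fold. Slc38a3, which moves glutamine between hepatocytes and blood, stood at 1449, 1450.3 and 1662 CPM in ketogenic livers and 1393, 1531 and 1411 CPM in chow livers (0.07, 95% interval -0.12 to 0.27, adjusted p = 0.529). Glud1 stood at 1502, 1497 and 1351 CPM in ketogenic livers and 1661, 1404 and 1347 CPM in chow livers (-0.02, 95% interval -0.24 to 0.20). For both of these abundant genes the groups overlapped. Their intervals excluded a change of 1.5-fold, provided that the near-identical ketogenic livers are separate mice. Slc26a4, with 26 counts summed over the ketogenic livers and 50 over the chow livers, did not pass (-0.69, adjusted p = 0.145).

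Marker sums of the liver lobule differed between the diets. The sum of 9 genes typical of hepatocytes near the central vein was 11980, 11950 and 12050 CPM in ketogenic livers and 6734, 6739 and 6609 CPM in chow livers, with 6 genes higher and 2 lower. Cyp2e1, a cytochrome P450, made up most of that sum and of its difference, at 8944, 8881 and 9008 CPM in ketogenic livers and 4220, 4230 and 4215 CPM in chow livers. It also rose in kidney, to 802.4, 1597 and 1685 CPM, against 146.8, 185.8 and 179.3 CPM in chow kidneys. Of the 8 genes of this list tested in kidney, 2 were higher, Cyp2e1 and Slc1a2, and 1 was lower, Rhbg. The sum of 8 genes typical of hepatocytes near the portal vein was 7343, 7297 and 9941 CPM in ketogenic livers and 12960, 13910 and 13210 CPM in chow livers, with 5 genes lower. General hepatocyte markers summed to 72990, 72780 and 76530 CPM in ketogenic livers and 128400, 128000 and 119200 CPM in chow livers, most of it Alb. The part of these shifts in the Car14, Car2 and Slc4a4 results was not tested.

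In the liver lists, 28 of 94 other tested genes rose and 27 fell, where 24.3% of all liver genes were higher and 23.3% lower. Gls2, the liver glutaminase of the portal zone, stood at 218, 214 and 288 CPM in ketogenic livers and 375, 332 and 359 CPM in chow livers (-0.57, adjusted p = 0.00192). Glul, which captures ammonium around the central vein, stood at 1305, 1324 and 1249 CPM in ketogenic livers and 1034, 1150 and 1100 CPM in chow livers (0.24, 0.0310). The glutamate transporter Slc1a2 of the same zone stood at 250.8, 254 and 299.8 CPM in ketogenic livers and 138, 147 and 119 CPM in chow livers (0.99, 1.86e-05). Aqp8, a water channel that also passes ammonia, fell (-0.86, 4.46e-06), and the bicarbonate exchanger Slc4a2 fell (-0.59, 0.000174). Of these 5 genes, Glul was lost when any 1 of ketogenic livers 1 and 2 and chow livers 2 and 3 was left out, and the other 4 passed without each library in turn.

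Among the 9 carbonic anhydrases tested in liver, 3 fell and 3 rose. Beside Car14 and Car2, Car5b fell (-0.53, adjusted p = 0.0238). Car5a, the mitochondrial enzyme that supplies bicarbonate for urea and glucose synthesis, rose to 105, 102 and 107 CPM in ketogenic livers, against 70.0, 80.7 and 68.2 CPM in chow livers (0.52, 0.000413). Car8, a relative without enzyme activity, rose (0.38, 0.00658), as did the red cell form Car1 (0.63, 0.0235), which stood at no more than 7.76 CPM in any liver.

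**Figure D4:**
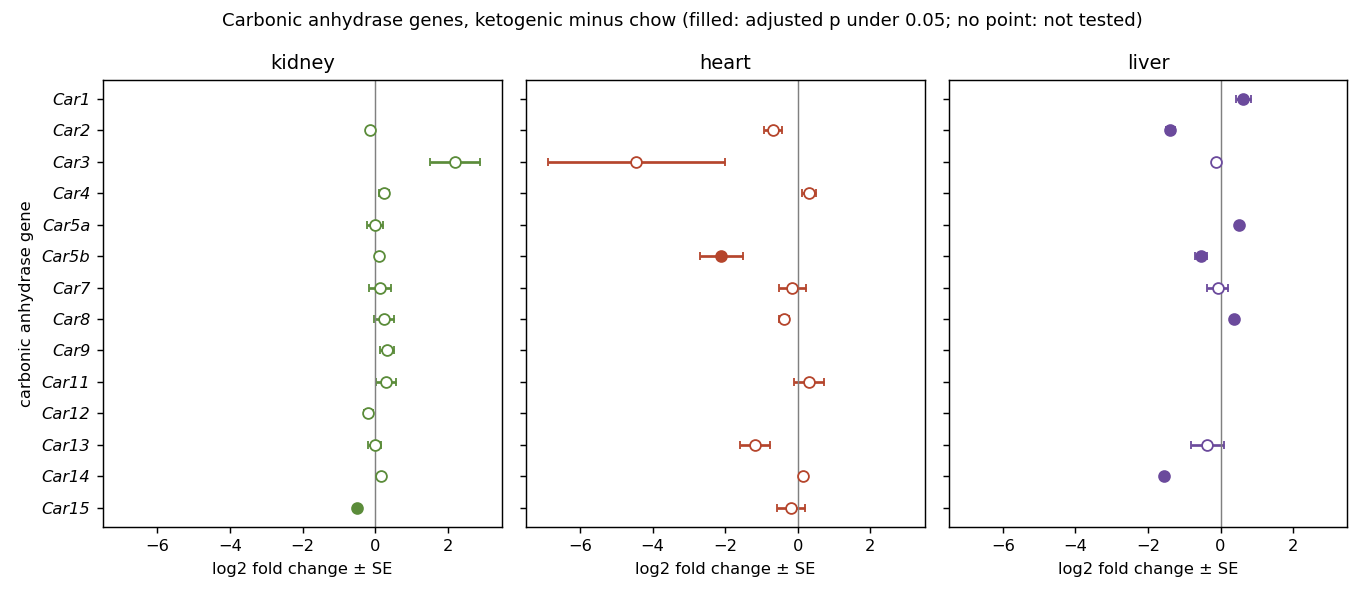
Log2 fold change ± SE (ketogenic minus chow) of the carbonic anhydrase genes in kidney, heart and liver; filled points passed at an adjusted p under 0.05 and genes without a point were not tested. In kidney only Car15 passed, in heart only Car5b (a call lost without any 1 ketogenic heart), and in liver Car2, Car14 and Car5b fell while Car1, Car5a and Car8 rose.

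The difference of the diet effect between organs was tested for each member in 1 model of all 18 libraries. For Car14 the effect in kidney exceeded that in liver by 1.76 on the log2 scale (SE 0.14, adjusted p = 3.86e-07), and the effect in heart exceeded that in liver by 1.72 (adjusted p = 5.04e-07). Across all genes, 29.2% differed in diet effect between kidney and liver and 32.7% between heart and liver. For Car2 the kidney effect exceeded the liver effect by 1.30 (SE 0.23, adjusted p = 0.000495) and the heart effect exceeded it by 0.73 (adjusted p = 0.0373), a call that was lost with the near-identical pairs summed (0.0776), with total-count scaling (0.117) and with limma-voom (0.0579). Between kidney and heart, where 5.43% of genes differed, no member passed. The diet effect on Slc4a4 passed in heart and liver and not in kidney, but its differences between organs were -0.32 for kidney minus heart (95% interval -0.68 to 0.04) and -0.01 for kidney minus liver (-0.37 to 0.35), and neither passed.

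**Figure D5:**
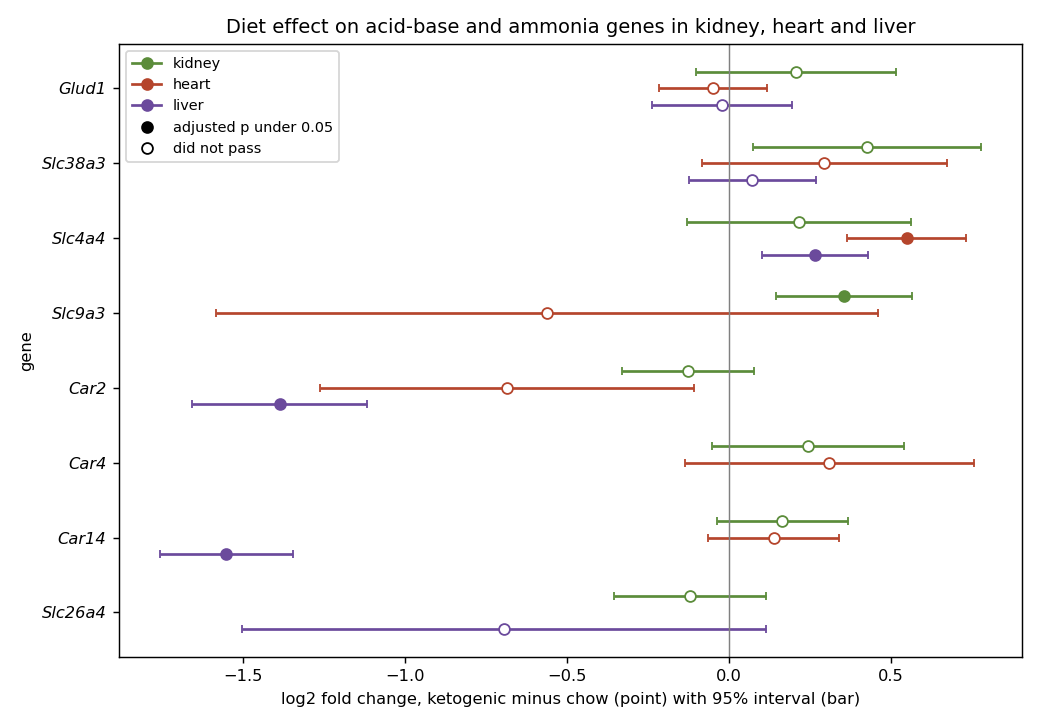
Log2 fold change (ketogenic minus chow) with its 95% interval for the 8 genes in kidney, heart and liver; filled points passed at an adjusted p under 0.05, and pairs of gene and organ without a point had too few counts. Slc9a3 passed in kidney, Slc4a4 in heart and liver, and Car2 and Car14 in liver, where they stand at -1.39 and -1.55 apart from their values in kidney.

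By Pearson's r of log2 CPM over the 18 libraries and 12091 genes, given as a description because the libraries share organ and depth, the most similar gene to Slc26a4 was the epithelial splicing factor Esrp1 (r = 0.996). For Slc38a3 it was B2m (0.996), for Glud1 Ttc39c (0.998), for Slc4a4 Adra2b (0.993), for Car2 Clcn5 (0.988) and for Car4 Fads3 (0.997). Car14 had the weakest closest match, Fgd1 (0.953).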

How the data were processed

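Messenger RNA of whole kidney, heart and liver was sequenced by a stranded protocol, per the labels. The submitters' processing notes name HISAT2 2.1.0 and featureCounts 1.5.0. Per the file headers, read pairs were counted on exons of the UCSC annotation of mm9 with strand setting 2 and minimum mapping quality 2, and reads with several positions or genes were split into fractions, so the deposited values are estimated counts. They were rounded to whole numbers before testing. Coordinates of genes are mm9; promoter sequences and their coordinates are RefSeq GRCm38.p6, and nothing was converted between the builds.

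For each organ, ketogenic was set against chow with edgeR 4.0.16 (R 4.3.3; filterByExpr, TMM, robust quasi-likelihood test), with Benjamini-Hochberg adjustment over all genes and a threshold of 0.05. CPM are counts over the effective library size. Differences between organs were contrasts in 1 model of 18 libraries. A count of 0 was bounded by 3 counts per library, intervals are at 95%, and both cover these libraries only. Alternatives were DESeq2 1.42.0, limma-voom (limma 3.58.1), RLE and total-count scaling, no filter, CPM of 1 in 3 libraries, a 1.5-fold test, all 18 libraries together, the replicate number as a block, the near-identical pairs summed, and each library left out.

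The 8 genes, the gene lists, the tests and the alternatives were chosen with earlier results of these data known. Named genes are the 8, up to 4 genes per list and organ with the smallest adjusted p, 12 partner genes, and the closest match over all libraries; Car1 and Car5b in liver were named after their values were seen. A partner gene and the closest match to Slc9a3 are not reported here. The test was also tried on counts simulated from the means and spreads of these libraries, and its outcome there is not given. Labels do not say whether organs with the same number came from 1 mouse.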

Additional observations from a re-analysis of the deposited data

Results flagged for a closer look

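Of the 18 comparisons of a diet effect between organs that could be made for these genes, those of 2 genes passed against liver. The difference in diet effect between kidney and liver was 1.759 for Car14 and 1.304 for Car2 on the log2 scale. Between heart and liver it was 1.721 for Car14 and 0.7345 for Car2. Both genes fell in liver, and neither passed in kidney or heart in the separate fit of each organ. Each difference is from a contrast in 1 model of all libraries, in which Car2 also passed in heart, where it was lower. The difference of Car2 between heart and liver was lost with the near-identical pairs summed, with total-count scaling and with limma-voom.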

How the results depend on the processing

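In kidney, 0 of the 8 genes passed with total-count scaling, with all 18 libraries in 1 model, with the replicate number as a block or in a test against 1.5-fold, against 1 in the other fits of all 6 libraries; leaving out 1 library gave 0 to 5. Over all kidney genes 810 passed with the replicate block (Slc9a3 adjusted p = 0.0565), 187 against 1.5-fold, and 412 to 3402 without 1 library. In heart, 2 members passed with total-count scaling and with all 18 libraries, 0 against 1.5-fold, and 1 to 3 without 1 library; of all heart genes 352 passed against 1.5-fold, 1642 with the near-identical pair summed and 1583 to 4689 without 1 library. In liver 1352 genes passed against 1.5-fold. With the pairs summed, 392 genes passed for the diet effect, kidney minus heart. On chow, Car14 in kidney minus heart was 0.079 with total-count scaling (adjusted p = 0.429), against -0.31 with TMM. That scaling moved the median of all heart genes to -0.16 and of kidney genes to -0.09. The share of higher genes among those that passed was then 25.3% in kidney and 23.4% in heart, against 39.7% and 50.5% with TMM.

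Same-numbered ketogenic and chow libraries of an organ correlated at -0.128 to 0.105 in their deviations from the group means, so the numbers were not taken as pairs. Between organs, same-numbered chow kidneys and chow hearts correlated at 0.175, 0.099 and 0.178, and those with unequal numbers at -0.178 to 0.087. Same-numbered ketogenic kidneys and hearts correlated at -0.0734, -0.0205 and -0.182. Same-numbered pairs with liver ran from -0.0268 to 0.0981. The contrasts between organs did not pair libraries by number. Without ketogenic kidney replicate 1, the diet effect in kidney exceeded that in liver by 0.57 for Slc38a3 and by 0.42 for Glud1. That fit cannot test these differences, because the library left out had the lowest ketogenic kidney level of both genes. The causes of these dependences were not tested. With 3 libraries a group, the kidney intervals are wide for most of these genes, and low counts limit Slc9a3 in heart and Slc26a4 in heart and liver.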
